A study of Mus musculus with 6 samples.

Results

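The 10 genes described here code for plasma proteins of the acute phase response and were taken by name from the 48432 genes of the deposited table: the lipocalin Lcn2, the serum amyloid A genes Saa1, Saa2, Saa3 and Saa4, the orosomucoids Orm1, Orm2 and Orm3, the hemoglobin-binding haptoglobin Hp and the heme-binding hemopexin Hpx. Polyadenylated RNA of hepatocytes from FVB mice was sequenced as stranded libraries in 3 groups of 2 samples each. The DDC fed group was adult mice kept for 4 weeks on a diet with DDC, a porphyrin-inducing hepatotoxin. The E18 group was livers of embryonic day 18, with about 8 embryos pooled for each hepatocyte preparation, and the normal fed group was adult mice on chow. The labels name no other allele, transgene or agent. Nothing in them tells whether adult samples are different animals, and the p-values given here therefore reflect only the spread between these samples, which may be technical. Samples are called 0 and 1 within a group, as the table numbers its columns.

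Acute phase proteins are secreted mainly by hepatocytes, and their plasma levels move within hours to days of infection or tissue injury. Interleukin-6 acts through the receptor subunit gp130 and the factor STAT3, and interleukin-1 and tumor necrosis factor act through NF-kB. Both routes work together with C/EBP factors at the promoters of many of these genes. Lcn2 withholds iron from bacteria by binding their siderophores and is also stored in the granules of neutrophils. Saa1 and Saa2 are carried on high density lipoprotein and are the strongly inducible members in mouse liver, Saa3 is made in mice by macrophages and other cells outside the hepatocyte as well, and Saa4 is the constitutive member. Orosomucoids, also called alpha-1-acid glycoproteins, bind drugs and lipids in plasma.

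In the GENCODE M21 annotation of GRCm38 all 10 genes are protein-coding. The 4 Saa genes stand next to each other on chromosome 7, with Saa3 at chr7:46711998-46715700, Saa4 at chr7:46727998-46732603 and Saa1 at chr7:46740497-46742980 on the minus strand, and Saa2 at chr7:46751790-46754313 on the plus strand. Orm1 (chr4:63344560-63348163), Orm3 (chr4:63356162-63359511) and Orm2 (chr4:63362449-63365878) follow each other on the plus strand of chromosome 4. Lcn2 (chr2:32384633-32388252), Hp (chr8:109575128-109579172) and Hpx (chr7:105591613-105600137) are single genes on the minus strand. Close copies can share reads, and the counting behind the table is not known. Of the 50-base words in the longest coding transcript of Orm1, 20.4% also occur in Orm2, and of those of Saa1, 13.2% occur in Saa2. Levels of Orm1 against Orm2 and of Saa1 against Saa2 are therefore uncertain to the extent that such reads were split or dropped, while Saa4 shares no such word with the other Saa genes.

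RefSeq promoter windows on GRCm38.p6 were matched for 8 of the 10 genes, all but Orm1 and Hp. Within the 250 bases before the start, the C/EBP letters TTNNGCAA occurred on either strand in 8 of 8 windows, against 9.6% of all 32851 windows of the table. The STAT3 letters TTCNNNGAA occurred in 0 of 8 windows, against 7.0% of all, and the NF-kB letters, GGG followed by any pair of bases and TTTCC, in 0 of 8, against 1.4%. The absence of a match says only that these letters are not in the window. The windows of copies are not independent, since those of Saa1 and Saa2 are 94.8% identical and those of Orm2 and Orm3 85.5%. The windows of Saa1 and Saa3 are 48.2% identical and those of Saa1 and Saa4 46.3%. The pairs whose levels are set side by side in the results are shown from base 250 to base 51 before the start, on the strand of the gene, with the C/EBP match in capitals, where a match on the opposite strand appears as its reverse complement. The coordinates are chr7:46743031-46743230 (minus) for Saa1, chr7:46751583-46751782 (plus) for Saa2, chr7:46715727-46715926 (minus) for Saa3, chr4:63362199-63362398 (plus) for Orm2 and chr4:63355908-63356107 (plus) for Orm3.
Saa1: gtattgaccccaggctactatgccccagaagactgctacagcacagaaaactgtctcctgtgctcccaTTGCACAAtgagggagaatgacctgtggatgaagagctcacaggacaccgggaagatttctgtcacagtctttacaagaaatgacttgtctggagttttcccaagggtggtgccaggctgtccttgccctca
Saa2: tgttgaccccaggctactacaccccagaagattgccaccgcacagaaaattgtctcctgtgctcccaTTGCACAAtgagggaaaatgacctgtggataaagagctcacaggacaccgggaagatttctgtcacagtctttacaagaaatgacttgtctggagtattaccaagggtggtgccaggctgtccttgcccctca
Saa3: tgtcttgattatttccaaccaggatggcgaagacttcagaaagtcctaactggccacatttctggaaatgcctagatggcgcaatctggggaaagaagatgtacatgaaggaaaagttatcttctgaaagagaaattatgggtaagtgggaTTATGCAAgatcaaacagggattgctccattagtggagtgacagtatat
Orm2: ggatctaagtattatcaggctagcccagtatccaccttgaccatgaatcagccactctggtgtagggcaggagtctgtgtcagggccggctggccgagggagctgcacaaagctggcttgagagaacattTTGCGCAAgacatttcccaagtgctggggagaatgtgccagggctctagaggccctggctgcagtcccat
Orm3: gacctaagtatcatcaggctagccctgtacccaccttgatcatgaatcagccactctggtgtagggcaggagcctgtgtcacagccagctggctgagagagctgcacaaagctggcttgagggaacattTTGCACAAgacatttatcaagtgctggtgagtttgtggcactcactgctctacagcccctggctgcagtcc
Saa1 and Saa2 carry the same 8 letters, TTGCACAA, at bases 182 to 175 and 183 to 176 before their starts. Saa3 has TTATGCAA at bases 99 to 92. Orm2 has TTGCGCAA at bases 120 to 113, which reads the same on both strands, and Orm3 has TTGCACAA at bases 121 to 114. The match in Lcn2 was TTGCTCAA at bases 216 to 209. That window is not shown because 197 of its 250 bases lie in exons of longer Lcn2 transcripts. These matches describe sequence and show no binding.

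The deposited values are TPM, transcript levels per length that sum to 1000000 in each sample, so the read depth is unknown. Of the genes, 14307 reached 1 TPM in at least 2 of 6 samples and were tested with limma on log2(TPM + 1), with p-values adjusted over all of them and a threshold of 0.05. All 10 acute phase genes passed this filter, which the group where a gene is high can satisfy alone. A group was listed at 0 in both samples for 80 genes that reached 100 TPM elsewhere, and such values are treated as failed estimates, with no fold change against them. Compared within their group, the samples differed by a median of 0.125 on the log2 scale for DDC fed, 0.168 for E18 and 0.372 for normal fed, without regard to sign. The hepatocyte label was checked on 15 hepatocyte genes, whose summed level was 50500 and 48446 TPM in DDC fed samples, 16716 and 11062 TPM in E18 samples, and 73241 and 71219 TPM in normal fed samples, with Alb listed at 0 in all 6. Fgb was also listed at 0 in both E18 samples, and Serpina1a and Serpina1c in both normal fed samples. The 15 erythroid markers summed to 9.4 and 8.78 TPM in DDC fed samples and 26.5 and 17.1 TPM in normal fed samples. In E18 samples they summed to 12877 and 24166 TPM. With hepatocyte genes listed at 0, the share of erythroid against hepatocyte RNA cannot be read from these sums. Stellate and fibroblast markers summed to 439 and 399 TPM in DDC fed samples, 699 and 683 TPM in E18 samples, and 32.5 and 14.5 TPM in normal fed samples. Endothelial markers summed to 224 and 235 TPM in DDC fed samples, 630 and 642 TPM in E18 samples, and 65 and 22.8 TPM in normal fed samples. Neutrophil markers summed to 59140 and 70562 TPM in E18 samples, the largest sum of these marker lists there. They summed to 5.74 and 6.1 TPM in DDC fed samples and 0.555 and 0.626 TPM in normal fed samples. Macrophage markers summed to 1520 and 1849 TPM in DDC fed, 4718 and 6154 TPM in E18, and 207 and 161 TPM in normal fed samples. The E18 and DDC fed samples thus held RNA of cells other than hepatocytes. In both groups the macrophage, stellate and fibroblast, and endothelial sums lay above those of normal fed samples, without overlap. The part of these cell types in the levels of the 10 genes was not tested. The median log2 difference of all genes tested was 0.45 for DDC fed against normal fed, 1.06 for E18 against normal fed and -0.55 for DDC fed against E18. With the samples rescaled by median ratio it was -0.01, 0.03 and -0.04, and the share of higher genes among those past the threshold moved to 62.3%, 52.4% and 46.8%, against 91.8%, 83.2% and 27.4% for the values as deposited.

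In DDC fed against normal fed hepatocytes, Lcn2, Saa1, Saa2, Saa3, Orm2 and Orm3 rose, Saa4 fell, and Orm1 did not pass the test. Hp and Hpx were listed at 0 in both DDC fed samples and have no fold change. The 6 genes that rose compare with 34.2% of all genes tested that were past the threshold and higher, and the 1 that fell with 3.07% that were lower. The log2 differences of the 8 genes with a fold change ran between -1.23 and 8.93, with a median of 2.07, beside the median of 0.45 for all genes tested. Samples of the groups did not overlap in any of the 8 genes, Orm1 included, with 7 higher and 1 lower in DDC fed samples, while 62.4% of all genes tested were higher and 8.99% lower without overlap. With median-ratio scaling 5 of the 8 were past the threshold, where 33.3% of all genes were, and the differences were lower throughout.

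In E18 against normal fed samples most of the set fell. Of the 9 genes with a fold change, Lcn2 and Saa3 rose, and Saa1, Saa2, Saa4, Orm1, Orm3, Hp and Hpx fell. Orm2 was listed at 0 in both E18 samples. The genes that rose compare with 63.0% of all genes tested that were past the threshold and higher, and the 7 that fell with 12.7% that were lower. The median log2 difference of the 9 was -3.31, beside 1.06 for all genes tested, and the range was -6.34 to 7.79. With median-ratio scaling 8 of the 9 were past the threshold, Lcn2 higher and 7 lower, where 69.6% of all genes were past it. None of the 9 overlapped between the groups, where 69.7% of all genes were higher and 16.7% lower without overlap. Both comparisons use the same normal fed samples, so their values for a gene are not independent of each other.

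**Figure D1:**
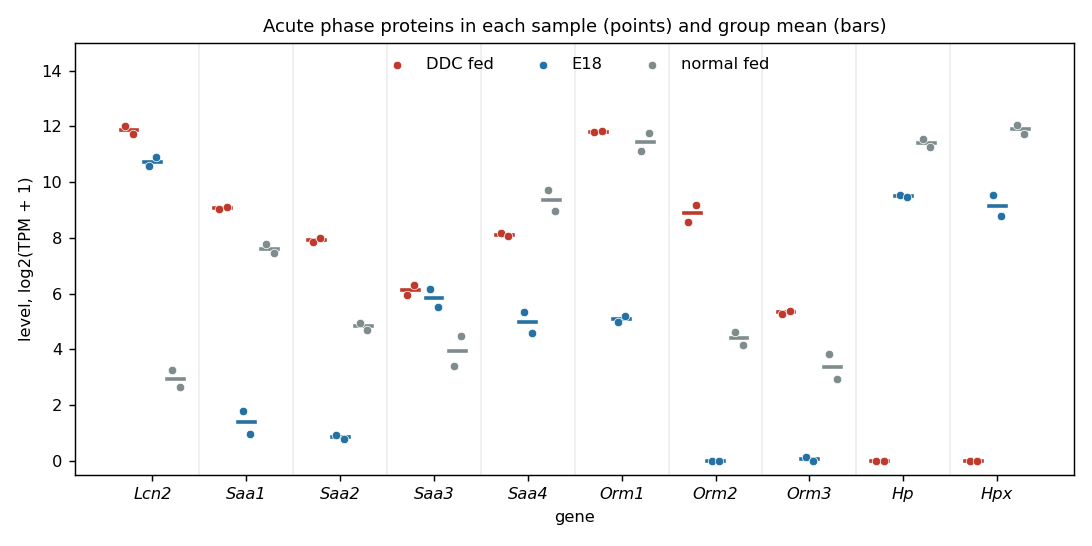
Level of each acute phase gene as log2(TPM + 1) on the vertical axis, by gene on the horizontal axis. Points are single samples and bars are group means of 2 samples, for DDC fed, E18 and normal fed from left to right within a gene. Lcn2 stands highest in DDC fed samples (4173 and 3342 TPM) and lowest in normal fed samples (8.48 and 5.23 TPM), and Hp and Hpx are listed at 0 in the DDC fed samples.

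Lcn2 had the largest log2 difference of the set in both comparisons with normal fed samples. Its level was 4173 and 3342 TPM in DDC fed samples, 1510 and 1906 TPM in E18 samples, and 8.48 and 5.23 TPM in normal fed samples. The groups did not overlap, and every DDC fed and E18 sample lay far above both normal fed samples. The log2 difference was 8.93 ± 0.29 (SE) for DDC fed against normal fed (adjusted p = 8.9e-06, limma) and 7.79 ± 0.29 for E18 against normal fed (adjusted p = 1.8e-06, limma). Among all genes listed, Lcn2 ranked 21 and 27 by level in the DDC fed samples, 89 and 63 in the E18 samples, and 6800 and 7145 in the normal fed samples. With median-ratio scaling the differences were 8.32 and 6.65.

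The inducible Saa1 and Saa2 were highest in DDC fed samples and lowest at E18. Saa1 had 519 and 549 TPM in DDC fed samples, 2.42 and 0.971 TPM in E18 samples, and 220 and 173 TPM in normal fed samples. Saa2 had 229 and 257 TPM in DDC fed samples, 0.889 and 0.731 TPM in E18 samples, and 30.1 and 24.9 TPM in normal fed samples. In both genes the 3 groups lay apart, and no E18 sample was above 2.42 TPM. Saa2 rose in DDC fed against normal fed hepatocytes by 3.10 ± 0.20 on the log2 scale (adjusted p = 0.00012, limma), and Saa1 by 1.45 ± 0.30 (adjusted p = 0.0096, limma). The Saa1 call rests on the scaling and on both DDC fed samples: the difference was 0.78 with median-ratio scaling (adjusted p = 0.051), 1.49 without DDC fed sample 0 (adjusted p = 0.055) and 1.41 without DDC fed sample 1 (adjusted p = 0.066). At E18 against normal fed the log2 differences were -6.24 ± 0.30 for Saa1 (adjusted p = 3.7e-06, limma) and -3.97 ± 0.20 for Saa2 (adjusted p = 4.6e-06, limma), and the added 1 TPM understates these differences because the E18 levels are low.

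Saa3 behaved unlike its neighbors and was higher both in DDC fed and in E18 samples than in normal fed ones. It had 60.7 and 77.7 TPM in DDC fed samples, 71 and 45.3 TPM in E18 samples, and 9.64 and 21.2 TPM in normal fed samples. The DDC fed and E18 samples overlapped each other, and both lay above the normal fed samples, which differed by 1.06 on the log2 scale between themselves. The log2 difference was 2.18 ± 0.39 for DDC fed against normal fed (adjusted p = 0.0057, limma) and 1.91 ± 0.39 for E18 against normal fed (adjusted p = 0.0038, limma). Both calls depend on the scaling, with 1.54 (adjusted p = 0.054) and 0.75 (adjusted p = 0.21) under median-ratio scaling. The 18 macrophage markers, among them Cd68, Csf1r and Clec4f, moved in the same direction: their summed level was 1520 and 1849 TPM in DDC fed samples, 4718 and 6154 TPM in E18 samples, and 207 and 161 TPM in normal fed samples. Of the E18 sums, Lyz2 alone made up 2674 and 3352 TPM. All 18 macrophage markers were past the threshold and higher in both comparisons with normal fed samples, and none was at 0 throughout a group. Of all genes tested, 34.2% were past the threshold and higher for DDC fed and 63.0% for E18. With median-ratio scaling Vsig4 was not past the threshold at E18 (0.39, adjusted p = 0.15, limma). For DDC fed against E18, as deposited, 10 of the 18 were lower, 1, Vsig4, was higher and 7 did not pass. Of all genes tested, 47.0% were lower and 17.7% higher in that comparison. The part of macrophages in the Saa3 levels was not tested. In these bulk samples, more cells of a type and more RNA per cell cannot be told apart.

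Saa4, the constitutive member, was lower in both groups than in normal fed samples. It had 286 and 268 TPM in DDC fed samples, 39.8 and 23.1 TPM in E18 samples, and 849 and 498 TPM in normal fed samples. The groups did not overlap, and the normal fed samples were spread more widely than the DDC fed samples. The log2 difference was -1.23 ± 0.35 for DDC fed against normal fed (adjusted p = 0.033, limma) and -4.38 ± 0.35 for E18 against normal fed (adjusted p = 3.7e-05, limma). The DDC fed call was lost without normal fed sample 0 (-0.84, adjusted p = 0.059), without DDC fed sample 0 (-1.27, adjusted p = 0.13), without DDC fed sample 1 (-1.18, adjusted p = 0.15) and with no filter on low values (adjusted p = 0.1). With median-ratio scaling it was -1.90 (adjusted p = 0.0043).

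**Figure D2:**
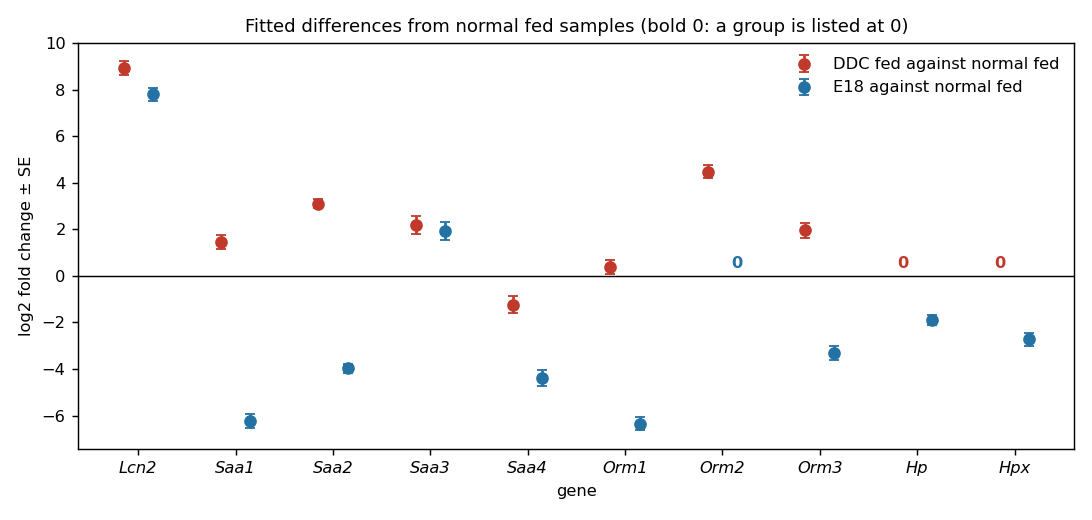
Log2 fold change ± SE (vertical axis) of each acute phase gene (horizontal axis) for DDC fed against normal fed and E18 against normal fed, from the limma fit. A bold 0 marks a comparison with a group listed at 0, which has no fold change. Lcn2 and Saa3 lie above 0 in both comparisons and Saa4 below 0 in both, while Saa1, Saa2 and Orm3 lie above 0 in DDC fed and below 0 in E18 samples.

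The summed level of the Saa genes hid a change in their make-up. The sum was 1095 and 1152 TPM in DDC fed samples, 114 and 70.1 TPM in E18 samples, and 1108 and 717 TPM in normal fed samples. DDC fed and normal fed samples overlapped in this sum, and the E18 samples lay below both. Saa1 made up 47.5% and 47.6% of the sum in DDC fed samples, 2.12% and 1.39% in E18 samples, and 19.8% and 24.2% in normal fed samples. Saa2 made up 20.9% and 22.3% of the sum in DDC fed samples, 0.78% and 1.04% in E18 samples, and 2.72% and 3.47% in normal fed samples. The share of Saa4 was 26.1% and 23.3% in DDC fed samples, 34.9% and 32.9% in E18 samples, and 76.6% and 69.4% in normal fed samples. Saa4 was thus the leading transcript of normal fed samples and Saa1 that of DDC fed samples. Saa3 led at E18, with 62.2% and 64.7% of the sum, against 5.55% and 6.74% in DDC fed samples and 0.87% and 2.96% in normal fed samples. The ratio of Saa1 to Saa2, the pair with nearly identical promoter windows, was 2.27 and 2.13 in DDC fed samples, 2.72 and 1.33 in E18 samples, and 7.29 and 6.97 in normal fed samples. These shares and ratios are within a sample and do not change with its scaling. They are given as descriptions, with no test.

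**Figure D3:**
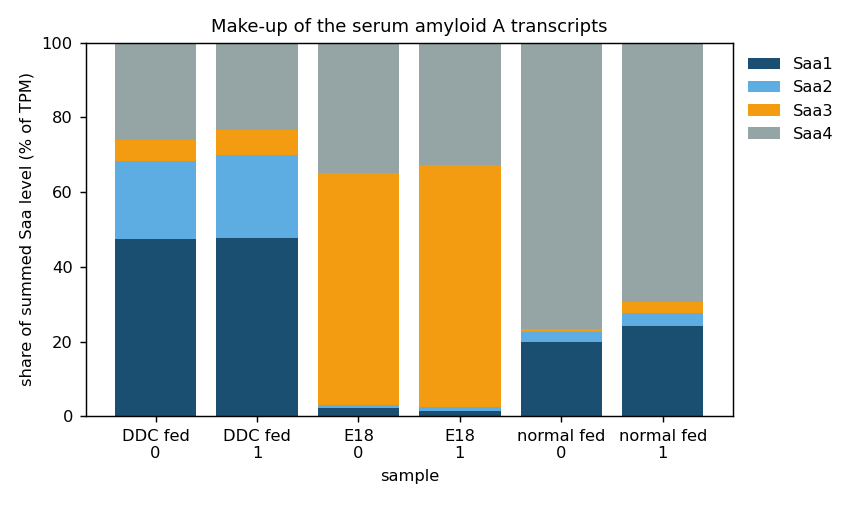
Share of each Saa gene in the summed Saa level (vertical axis, percent of TPM) in each of the 6 samples (horizontal axis). Saa1 takes 47.5% and 47.6% in the DDC fed samples, Saa3 62.2% and 64.7% in the E18 samples, and Saa4 76.6% and 69.4% in the normal fed samples.

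The orosomucoids showed a similar contrast between an abundant and a scarce copy. Orm1 had 3516 and 3652 TPM in DDC fed samples, 30.8 and 35.5 TPM in E18 samples, and 2211 and 3430 TPM in normal fed samples. DDC fed samples lay just above normal fed sample 1, and the E18 samples lay far below both groups. Orm1 did not pass the test for DDC fed against normal fed (0.38 ± 0.29 on the log2 scale, adjusted p = 0.34, limma), where median-ratio scaling turned the sign (-0.29, adjusted p = 0.60) and leaving out normal fed sample 1 gave 0.70 (adjusted p = 0.034). At E18 it fell by 6.34 ± 0.29 on the log2 scale against normal fed (adjusted p = 3.2e-06, limma).

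Orm2 had 379 and 585 TPM in DDC fed samples, against 23.9 and 16.9 TPM in normal fed samples, and was listed at 0 in both E18 samples. Both DDC fed samples lay above both normal fed samples, and the log2 difference was 4.48 ± 0.28 (adjusted p = 0.00011, limma), the next largest of the set after Lcn2. Whether the E18 zeros are low levels or failed estimates cannot be read from the table. Orm3 had 37.8 and 40.3 TPM in DDC fed samples, 0.0917 and 0 TPM in E18 samples, and 13.1 and 6.58 TPM in normal fed samples. The groups did not overlap, with log2 differences of 1.95 ± 0.31 for DDC fed against normal fed (adjusted p = 0.0033, limma) and -3.31 ± 0.31 for E18 against normal fed (adjusted p = 7.7e-05, limma). Orm2 made up 9.65% and 13.7% of the summed Orm level in DDC fed samples and 1.06% and 0.489% in normal fed samples. Orm1 remained the main transcript, with 89.4% and 85.4% in DDC fed samples and 98.4% and 99.3% in normal fed samples.

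The scavengers Hp and Hpx could be compared only between E18 and normal fed samples. Hp had 741 and 710 TPM in E18 samples and 2963 and 2474 TPM in normal fed samples. Hpx had 746 and 436 TPM in E18 samples and 4282 and 3371 TPM in normal fed samples. Both fell at E18 without overlap, Hp by 1.90 ± 0.20 on the log2 scale (adjusted p = 0.00013, limma) and Hpx by 2.73 ± 0.29 (adjusted p = 0.00016, limma). In the DDC fed samples both were listed at 0, as were 44 genes in all that reached 100 TPM elsewhere. No level of Hp or Hpx after DDC feeding can therefore be given.

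Hepatocyte markers were also lower at E18. Of 11 hepatocyte markers with a fold change, 9 were past the threshold and lower in E18 than in normal fed samples and 0 higher, with a median log2 difference of -2.06. Of all genes tested, 12.7% were lower and 63.0% higher there. Of the 12 with a fold change for DDC fed against normal fed, 1, Cyp2e1, was past the threshold and lower and 0 higher, with a median of -0.09. Of all genes tested, 3.07% were lower and 34.2% higher in that comparison. Without normal fed sample 0 the median was 0.11 and the calls changed. With median-ratio scaling 2 were lower, where 1747 of 13922 genes were, and the median was -0.76. Set against Ttr, the transthyretin transcript of hepatocytes, which was chosen after its values were seen, Hp was at a ratio of 0.188 and 0.286 in E18 samples and 0.311 and 0.257 in normal fed samples. This ratio of Hp overlapped between the groups. Set against Apoh, another hepatocyte transcript chosen after its values were seen, Hp was at 0.201 and 0.297 in E18 samples and 0.703 and 0.919 in normal fed samples, without overlap, so the overlap depends on the transcript used. The ratio of Hpx to Ttr was 0.189 and 0.175 in E18 samples, below 0.449 and 0.35 in normal fed samples. That of Orm1 was 0.00782 and 0.0143 in E18 samples and 0.232 and 0.356 in normal fed samples, and that of Saa1 was 0.000614 and 0.000391 in E18 samples and 0.023 and 0.018 in normal fed samples. Per unit of Ttr, Hpx, Orm1 and Saa1 were thus lower at E18 without overlap, and the same held per unit of Apoh, where Hpx was at 0.202 and 0.182 in E18 samples and 1.02 and 1.25 in normal fed samples. Ttr is also on the list of negative acute phase proteins and was itself lower at E18 than in normal fed samples (-1.61 ± 0.39, adjusted p = 0.008, limma). Apoh did not pass in that comparison (-0.18 ± 0.39, adjusted p = 0.68, limma). The ratios are descriptions, and the part of the hepatocyte share of the RNA in these levels was not tested.

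Lcn2 is stored in neutrophil granules, and the neutrophil genes moved differently in the DDC fed and E18 samples. The 18 neutrophil markers summed to 5.74 and 6.1 TPM in DDC fed samples, 59140 and 70562 TPM in E18 samples, and 0.555 and 0.626 TPM in normal fed samples. Ltf, the lactoferrin of the same granules, had 0.301 and 0.326 TPM in DDC fed samples and 1412 and 1788 TPM in E18 samples, and was listed at 0 in the normal fed samples. Camp, the cathelicidin of these granules, had 0 and 0.105 TPM in DDC fed samples and 2520 and 3225 TPM in E18 samples, and was listed at 0 in the normal fed samples. The granule genes were therefore abundant at E18 and at or near 0 in the DDC fed samples, where Lcn2 was higher than at E18. The ratio of Lcn2 to Ltf was 13870 and 10253 in DDC fed samples and 1.07 and 1.07 in E18 samples, and that of Lcn2 to Camp was 0.599 and 0.591 in E18 samples. Of 5 neutrophil markers with a fold change for DDC fed against normal fed, Prtn3 (0.84 ± 0.23, adjusted p = 0.028, limma) and Csf3r (0.68 ± 0.19, adjusted p = 0.031, limma) were past the threshold, neither above 1.4 TPM in a DDC fed sample and neither called without either DDC fed sample. Of all genes tested, 34.2% were past the threshold and higher in that comparison. Within the E18 group, sample 1 was higher than sample 0 in Lcn2, in Ltf, in Camp and in the neutrophil sum. It was also higher in the macrophage, cholangiocyte, erythroid and endothelial sums. The hepatocyte sum and the stellate and fibroblast sum were lower in sample 1. The 15 markers of cholangiocytes, the cells of bile ducts, summed to 114 and 133 TPM in DDC fed samples, 948 and 1271 TPM in E18 samples, and 14.4 and 12.2 TPM in normal fed samples, with Krt19 at 0.0909 and 0.227 TPM in the DDC fed samples. Bile duct markers were thus higher in both groups than in normal fed samples, as were the macrophage markers, and lower in DDC fed than in E18 samples. The part of neutrophil, bile duct or macrophage RNA in the levels of Lcn2 was not tested.

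**Figure D4:**
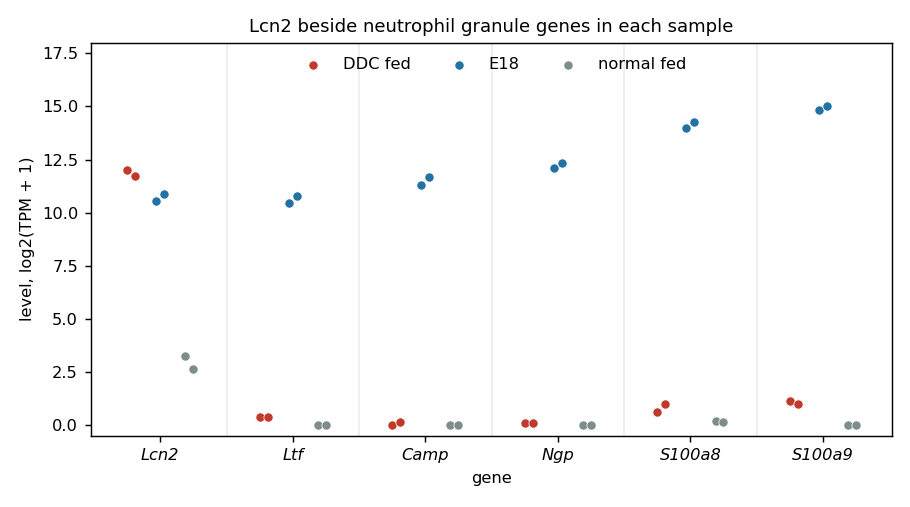
Level of Lcn2 and of 5 neutrophil genes as log2(TPM + 1) on the vertical axis, by gene on the horizontal axis, with single samples as points for DDC fed, E18 and normal fed. Lcn2 is high in the DDC fed samples (4173 and 3342 TPM) where Ltf, Camp, Ngp, S100a8 and S100a9 are all under 2 TPM, and in the E18 samples all 6 genes are high.

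Among themselves, the genes took a different order in each group. In DDC fed samples Lcn2 and Orm1 led, with levels that overlapped between the genes. Saa1 and Orm2 came next and also overlapped, followed by Saa4, Saa2, Saa3 and Orm3. In E18 samples Lcn2 led alone, Hp and Hpx overlapped below it, and Saa3 lay above Orm1 and Saa4, which overlapped. Saa1, Saa2 and Orm3 followed. Orm2 is left out of the E18 order, and Hp and Hpx of the DDC fed order, because no level can be given there. In normal fed samples Hpx was overlapped by Orm1, and Orm1 by Hp. Saa4 and Saa1 followed, then Saa2 above Orm2, and Orm2, Saa3, Orm3 and Lcn2 overlapped in a chain at the lower end. TPM is a level per transcript length, and no test was made between genes.

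In DDC fed adults against E18, all 7 genes with values above 0 in both groups were on average higher in DDC fed samples, and 6 were past the threshold. The share of all genes tested that were past the threshold and higher was 17.7% and of those lower 47.0%, and without overlap 28.2% were higher and 61.8% lower. The 6 genes did not overlap between the groups, and Saa3 did. The log2 difference was 7.69 ± 0.30 for Saa1 (adjusted p = 3.2e-06, limma) and 7.07 ± 0.20 for Saa2 (adjusted p = 1.8e-06, limma). Orm1 differed by 6.72 ± 0.29 (adjusted p = 4.4e-06, limma), Orm3 by 5.26 ± 0.31 (adjusted p = 1.5e-05, limma) and Saa4 by 3.15 ± 0.35 (adjusted p = 0.00029, limma). Lcn2 differed least of the 6, by 1.14 ± 0.29 (adjusted p = 0.013, limma), and was not past the threshold without DDC fed sample 0 (0.98, adjusted p = 0.095) or without E18 sample 0 (0.97, adjusted p = 0.078). Saa3 did not pass, with 0.27 ± 0.39 (adjusted p = 0.57, limma), and its sign turned without E18 sample 1 (-0.05, adjusted p = 0.95).

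Other positive acute phase proteins followed the set in part. Of 25 listed, 23 had a fold change for DDC fed against normal fed, of which 11 rose, 0 fell and 12 did not pass, with a median log2 difference of 0.99. Of all genes tested, 34.2% rose and 3.07% fell in this comparison, with a median of 0.45. Cd14, a co-receptor for bacterial lipopolysaccharide, had 87.5 and 92.6 TPM in DDC fed and 0.871 and 1.09 TPM in normal fed samples (5.52 ± 0.18, adjusted p = 9.6e-06, limma). Lbp, which hands lipopolysaccharide to Cd14, had 229 and 214 TPM in DDC fed and 49.6 and 29.8 TPM in normal fed samples (2.49 ± 0.29, adjusted p = 0.00098, limma). Il1rn, the interleukin-1 receptor antagonist, and the metallothionein Mt2 rose by 3.56 ± 0.19 and 4.97 ± 0.62. With median-ratio scaling 8 of the 23 rose and 1 fell, where 2890 of 13922 genes rose and 1747 fell. Fewer rose without DDC fed sample 1, as over all genes tested. At E18 against normal fed, 9 of 22 rose and 7 fell, with a median of 0.00. Of all genes tested, 63.0% rose and 12.7% fell, with a median of 1.06. With median-ratio scaling 6 of the 22 rose and 12 fell, where 5073 of 13922 genes rose and 4613 fell. A2m, the alpha-2-macroglobulin, had 924 and 587 TPM in E18 samples and 0.0437 and 0.00605 TPM in normal fed samples (9.49 ± 0.26, adjusted p = 1.4e-06, limma). In DDC fed samples A2m had 0.00626 and 0.0303 TPM and did not differ from normal fed samples (-0.01 ± 0.26), so its high level was seen only at E18. Hamp, the iron hormone hepcidin, had 177 and 94.7 TPM in E18 and 13463 and 12714 TPM in normal fed samples (-6.65 ± 0.37, adjusted p = 7.2e-06, limma), and Mbl2 and Lrg1 fell by 2.77 ± 0.26 and 2.60 ± 0.40.

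Negative acute phase proteins, which fall in plasma during the response, showed few calls in DDC fed samples. Of 11 with a fold change for DDC fed against normal fed, Serpina7, the thyroxine-binding globulin, rose (3.93 ± 0.39, adjusted p = 0.00049, limma), Pon1, a paraoxonase of high density lipoprotein, fell (-2.12 ± 0.34, adjusted p = 0.0037, limma), and 9 did not pass. With median-ratio scaling 3 fell, where 1747 of 13922 genes did. The counts also changed without either normal fed sample. At E18 against normal fed, 10 of 12 fell, where 12.7% of all genes tested did, and Serpina7 rose (1.69 ± 0.39, adjusted p = 0.0061, limma), which was not past the threshold with median-ratio scaling (0.57, adjusted p = 0.23). Igf1, the growth factor secreted by adult liver, had 16.9 and 17.4 TPM in E18 and 1232 and 1046 TPM in normal fed samples (-5.97 ± 0.21, adjusted p = 1.7e-06, limma).

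Of the 25 receptors and signaling genes of the acute phase, 12 rose and 2 fell in DDC fed against normal fed samples, where 34.2% of all genes tested rose and 3.07% fell. Osmr, the oncostatin M receptor, had 4.35 and 3.86 TPM in DDC fed and 0.185 and 0.0704 TPM in normal fed samples (2.18 ± 0.18, adjusted p = 0.00028, limma). Lifr, the leukemia inhibitory factor receptor, had 44.5 and 39.5 TPM in DDC fed and 357 and 257 TPM in normal fed samples (-2.82 ± 0.28, adjusted p = 0.00051, limma), and the interleukin-1 receptor accessory protein Il1rap also fell (-1.63 ± 0.28, adjusted p = 0.0046, limma). Tlr2 rose by 3.80 ± 0.22, Il10rb by 2.85 ± 0.21 and Il22ra1, the receptor chain for interleukin-22, by 2.93 ± 0.29. The count of genes that rose or fell changed where a DDC fed or a normal fed sample was left out. So did the count over all genes tested. At E18 against normal fed, 19 rose, where 63.0% of all genes tested did, and 2 fell, namely Il1rap (-3.03 ± 0.28, adjusted p = 7.3e-05, limma) and Lifr (-2.58 ± 0.28, adjusted p = 0.00017, limma). With median-ratio scaling 10 rose and 4 fell, where 5073 of 13922 genes rose and 4613 fell. In both comparisons the summed levels of macrophage, neutrophil, bile duct, stellate and endothelial markers were higher without overlap than in normal fed samples, and at E18 that of erythroid markers was as well. The part of these cell types in the lists was not tested.

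Of 22 transcription factors and NF-kB regulators, 15 rose and 0 fell in DDC fed against normal fed samples, with a median log2 difference of 1.76, where 34.2% of all genes tested rose. Relb had 14.3 and 15.3 TPM in DDC fed and 0.442 and 0.41 TPM in normal fed samples (3.47 ± 0.18, adjusted p = 4.9e-05, limma). Nfkb2, its partner, rose by 2.99 ± 0.21, and the inhibitors Nfkbie and Tnfaip3 rose by 2.80 ± 0.18 and 4.51 ± 0.34. With median-ratio scaling 14 rose and 1 fell, where 2890 of 13922 genes rose and 1747 fell. The count that fell also changed without normal fed sample 1. At E18 against normal fed, 14 rose and 3 fell, and 63.0% of all genes tested rose, so the count that rose is near that of genes in general. Cebpd, a C/EBP factor of the acute phase, had 29.5 and 29.7 TPM in E18 and 3.05 and 3.24 TPM in normal fed samples (2.88 ± 0.25, adjusted p = 5.1e-05, limma). Those that fell included the liver factors Creb3l3 (-2.19 ± 0.27, adjusted p = 0.00031, limma) and Hnf4a (-1.75 ± 0.39, adjusted p = 0.0058, limma). With median-ratio scaling 13 rose and 8 fell, where 5073 of 13922 genes rose and 4613 fell. More also fell without normal fed sample 1, as over all genes tested.

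**Figure D5:**
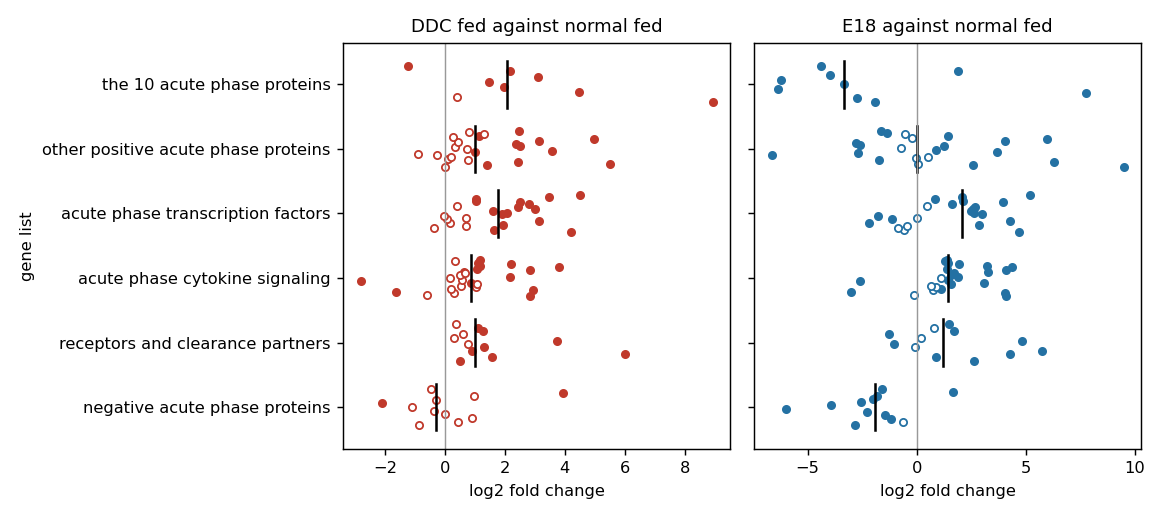
Log2 fold change (horizontal axis) of the genes of 6 lists (rows) for DDC fed against normal fed (left) and E18 against normal fed (right). Filled points are past the threshold, open points are not, and black bars are list medians, 2.07 over the 8 acute phase proteins with a fold change on the left and -3.31 over the 9 on the right.

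Receptors and clearance partners of the 10 proteins were also measured. Of 12 tested, 8 rose and 0 fell in DDC fed against normal fed samples, where 34.2% of all genes tested rose. The count was 4 under median-ratio scaling, where 2890 of 13922 genes rose. It was also 4 with no filter on low values, where 3949 of 24885 genes rose. It was lower without either DDC fed sample, as was the count over all genes tested. Cd36, a scavenger receptor that binds serum amyloid A, had 184 and 165 TPM in DDC fed and 1.96 and 1.46 TPM in normal fed samples (6.02 ± 0.20, adjusted p = 8.9e-06, limma). Hmox1, which degrades the heme that hemopexin delivers, had 129 and 168 TPM in DDC fed and 11 and 9.14 TPM in normal fed samples (3.75 ± 0.25, adjusted p = 0.00012, limma). Cd163, the receptor for haptoglobin bound to hemoglobin and a gene of macrophages, rose by 1.55 ± 0.30 (adjusted p = 0.008, limma). At E18 against normal fed, 7 rose, near the 63.0% of all genes tested that did, and 2 fell, with falls of Ftl1, the ferritin light chain (-1.03 ± 0.35, adjusted p = 0.033, limma), and of Lrp1, the receptor for hemopexin bound to heme (-1.26 ± 0.44, adjusted p = 0.035, limma). Neither fall was past the threshold in the fit of the compared groups alone, with no filter on low values, without either DDC fed sample or without either E18 sample, where 0 fell. Fewer of the genes rose without either E18 sample, as over all genes tested. With median-ratio scaling the falls of Ftl1 (-2.23, adjusted p = 0.012, limma) and Lrp1 (-2.45, adjusted p = 0.0009, limma) were larger. Hmox2 also fell under that scaling (-1.01, adjusted p = 0.0017, limma), where 4613 of 13922 genes fell. Fpr2, a receptor for serum amyloid A on neutrophils and other myeloid cells, had 65.4 and 76.6 TPM in E18 and 0.218 and 0.415 TPM in normal fed samples (5.77 ± 0.26, adjusted p = 3.2e-06, limma). Slc22a17, a receptor for Lcn2, was under 3 TPM in every sample, with 0.359 and 0.453 TPM in DDC fed, 2.39 and 1.82 TPM in E18, and 0.125 and 0.0643 TPM in normal fed samples.

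Likeness to Lcn2 and Saa3 over the 6 samples was measured as the Euclidean distance between centred log2(TPM + 1) profiles of all genes tested. The genes nearest to Lcn2 were the protease inhibitors Serpina1c at 0.86, Serpina1a at 0.98 and Serpina3m at 1.32, all of them listed at 0 in both normal fed samples, on which the likeness rests. Among genes with no group at 0, a choice made after the values were seen, the nearest were S100a11 at 1.39, Cd63 at 1.85 and Anxa2 at 2.15. S100a11 had 372 and 398 TPM in DDC fed samples, 312 and 380 TPM in E18 samples, and 1.01 and 0.784 TPM in normal fed samples. The nearest to Saa3 were Phlda2 at 0.66, Spa17 at 0.67 and the noncoding Pvt1 at 0.69. Phlda2 had 11.1 and 11.5 TPM in DDC fed samples, 9.31 and 6.04 TPM in E18 samples, and 0.641 and 1.32 TPM in normal fed samples. Orm2 has no such list because it is listed at 0 at E18.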

How the data were processed

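Stranded, poly(A)-selected RNA-seq of 6 hepatocyte samples was analysed from the table of TPM values that the authors deposited, which holds 48432 genes. The submitters' processing notes list the tools STAR 2.4.2a, HTSeq, Cuffdiff 2.2.1, DESeq2, Trimmomatic, Picard 1.119 and bcl2fastq 2.17.1.14 without saying which step used which, and they give the mouse build as GRCm38 or mm10. Which of them made the deposited values, and on what annotation release, is not given in the sources used here. With no counts to work from, no count test was used, and depth and counting error are unknown.

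Identifiers were matched to GENCODE M21, which gave 48053 genes a symbol. Columns, numbered 0 and 1, were assigned to groups by name and not to single sample titles. Genes that reached 1 TPM in 2 or more of the 6 samples were fitted as log2(TPM + 1) with limma 3.58.1 in R 4.3.3, with 1 mean per group, 3 residual degrees of freedom and a mean-variance trend. Two-sided p-values were adjusted by Benjamini and Hochberg over 14307 genes. Differences are the first named group minus the second on the log2(TPM + 1) scale, which understates changes of low genes. The fit was tested on simulated data. Genes with both samples of a compared group at 0 have no fold change.

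The 10 members, the lists and the tests were chosen with earlier results of these data known. Of each list, up to 4 genes past the threshold with the smallest adjusted p in each direction may be named, and every gene where a count is 5 or fewer, except 1 gene that is not reported here. Slc22a17 and other genes outside this rule were chosen after their values were seen. Alternatives were other pseudocounts, filters, median-ratio scaling, the replicate number as a term, the compared groups alone, and fits with any of the 6 samples left out. A fit without genes listed at 0 was added after the data were seen.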

Additional observations from a re-analysis of the deposited data

How the results depend on the processing

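Of 24 fold changes of the acute phase genes, recomputed under the alternatives in 333 values, 319 kept their direction and side of the threshold, 11 lost their call, 1 gained a call and 2 changed sign without being past the threshold. Those that changed sign were Orm1 for DDC fed against normal fed with median-ratio scaling (-0.29) and Saa3 for DDC fed against E18 without E18 sample 1 (-0.05, with a range of -0.05 to 0.59 over the fits that leave out a sample). The cause was not tested. The count of genes past the threshold was 7 for DDC fed against normal fed (5 to 8 under the alternatives), 9 for E18 against normal fed (8 to 9) and 6 for DDC fed against E18 (5 to 6). These ranges leave out the fit without genes listed at 0, where fewer of the 10 genes could be counted and 6 of 7, 7 of 7 and 6 of 7 were past the threshold.

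Same-numbered samples deviated together with r = 0.233, 0.139 and 0.0605 across genes, so the numbers were not taken to pair the samples. The fit with the replicate block gave counts of 7, 9 and 6 and changed no call of the 10 genes. Over all genes tested, 5335 were past the threshold for DDC fed against normal fed, against 8902 without normal fed sample 0, 2662 without DDC fed sample 0 and 2623 without DDC fed sample 1. For DDC fed against E18 there were 9255, against 5680 without E18 sample 0 and 4888 without E18 sample 1. Where 1 sample was left in a group, it was assumed to vary like the other groups. No depth is known, so values near 0, as for Saa1, Saa2 and Orm3 at E18, have an unknown counting error.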
